A study of Saccharomyces cerevisiae with 24 samples.

Results

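PHO5, PHO11, PHO12, PHO8, PHO84, PHO89, PHO4, PHO81, SPL2 and PHM6 are genes of phosphate acquisition in budding yeast and of the PHO pathway that regulates it. They were taken as the rows of the deposited count table whose gene name equals one of these symbols, and all 10 of 10 were found among 7126 genes. PolyA RNA was sequenced from haploid Saccharomyces cerevisiae with or without calcineurin, the calcium-activated phosphatase whose regulatory subunit is encoded by CNB1. One strain carries cnb1delta::KanMx (cnb1Δ) and the other strain has CNB1 intact (WT). Both are BY4741, a laboratory strain of mating type MATa, with his3delta1, ura3delta0, leu2delta0, lys2delta0 and the construct HYG-TEFp-GFP(Y66F) on chromosome VI. Each strain was sampled untreated (0 h) and after 12, 48 and 72 h in 200 mM CaCl2, in synthetic medium with ammonium chloride, with cultures diluted every 12 h. There were 3 libraries in each of 8 groups, numbered 1 to 3 in the labels as repeated time courses. No untreated culture was sampled at 12, 48 or 72 h, so that CaCl2 and time in diluted culture cannot be told apart.

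When inorganic phosphate is plentiful, the cyclin-dependent kinase Pho85 with its cyclin Pho80 phosphorylates the transcription factor Pho4 and keeps it out of the nucleus. When phosphate is scarce, the inhibitor Pho81 restrains the kinase, and Pho4 enters the nucleus and, with Pho2, activates genes for secreted acid phosphatases and high-affinity phosphate transporters. PHO89, which encodes a sodium-phosphate cotransporter, is also known as a gene that alkaline stress induces through calcineurin and its transcription factor Crz1.

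Library totals ran from 18843220 to 22250806 counts, and CNB1 had 0 to 23 counts in the 12 cnb1Δ libraries, against 996 to 3320 counts in the 12 WT libraries. All 6 markers of MATa cells were counted in every library, while the alpha-factor genes MF(ALPHA)1 and MF(ALPHA)2 had at most 9 and 12 counts. The other listed MATalpha genes did not all stay that low. STE3 had 2 to 129 counts and SAG1 had 536 to 811, against a lowest count of 90 for the MATa marker AGA2. In each group at 48 h and 72 h, the library numbered 1 had the highest mean level of 18 general stress genes. Their mean log2 level, set against WT at 0 h, was 0.31 in library 1 and -0.36 and -0.43 in the other two of cnb1Δ at 48 h, and 0.64, -0.25 and -0.07 in libraries 1, 2 and 3 of cnb1Δ at 72 h. It was 1.20, -0.83 and -0.82 in WT at 48 h, and 0.52, -0.32 and 0.34 in WT at 72 h. In WT at 72 h library 3 lay closer to library 1 than to library 2, so library 1 did not stand apart there. Counts of called genes among the 10 PHO genes that involve 48 h or 72 h are also given without the 4 late libraries numbered 1.

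The letters CACGTG, together with CACGTT, which Pho4 is known to bind, were searched on both strands in the 800 bases before each start codon (RefSeq sequence, build R64). At least 1 of them occurred in 9 of the 10 genes, PHO4 being the exception, against 30.3% of 5997 such windows in the genome. The windows of PHO11 and PHO12 were 99% identical, so their matches are not separate observations. The genes were chosen as genes of the PHO pathway, so the contrast with the genome is no test. CACGTG alone was in 9% of the windows and CACGTT in 23.6%. SPL2 held 4 copies of CACGTG and PHO84 held 2. The letters GNGGCTCA and GNGGCGCA, which Crz1 is known to bind, occurred in 0 of the 10 genes and in 6.09% of the windows. No match says only that these letters are not in this window. These are letter matches and not measured binding. The stretches of 200 bases below show the spacing of matches at the acid phosphatase gene PHO5, at the transporter genes PHO84 and PHO89, and at SPL2 and PHM6, which were among the genes with the widest strain differences. These stretches leave out matches elsewhere in the 800 bases, and that of SPL2 holds 3 of its 4 copies. They run 5′ to 3′ on the strand of the gene, and capitals mark CACGTG, or CACGTT, which reads AACGTG where the match lies on the other strand. On build R64 they are chrII:431157-431356 for PHO5, chrXIII:26047-26246 for PHO84, chrII:798813-799012 for PHO89, chrVIII:375101-375300 for SPL2 and chrIV:1022576-1022775 for PHM6, all on the minus strand.
PHO5: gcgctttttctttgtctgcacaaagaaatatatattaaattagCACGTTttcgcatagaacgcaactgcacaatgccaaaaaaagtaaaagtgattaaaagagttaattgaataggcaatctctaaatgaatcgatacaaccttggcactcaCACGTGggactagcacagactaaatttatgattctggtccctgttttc
PHO84: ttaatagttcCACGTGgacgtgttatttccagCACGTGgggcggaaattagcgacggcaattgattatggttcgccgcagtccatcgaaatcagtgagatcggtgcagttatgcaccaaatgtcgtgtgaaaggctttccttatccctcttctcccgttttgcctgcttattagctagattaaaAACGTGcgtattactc
PHO89: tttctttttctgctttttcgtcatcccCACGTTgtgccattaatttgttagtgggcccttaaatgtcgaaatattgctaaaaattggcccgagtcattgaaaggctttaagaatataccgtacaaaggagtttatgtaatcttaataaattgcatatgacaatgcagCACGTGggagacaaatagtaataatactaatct
SPL2: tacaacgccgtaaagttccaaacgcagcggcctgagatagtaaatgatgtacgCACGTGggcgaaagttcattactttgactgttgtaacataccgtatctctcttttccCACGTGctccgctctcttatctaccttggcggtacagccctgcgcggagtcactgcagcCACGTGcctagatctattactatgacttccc
PHM6: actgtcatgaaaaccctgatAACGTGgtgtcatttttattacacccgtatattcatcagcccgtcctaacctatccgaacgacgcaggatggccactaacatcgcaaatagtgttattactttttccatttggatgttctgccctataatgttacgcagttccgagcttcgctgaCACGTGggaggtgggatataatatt

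The acid and alkaline phosphatase genes fell in both strains at 48 h and 72 h. Levels are given as CPM, for which counts were divided by the library's total multiplied by its TMM factor. These factors ran from 0.8433 (WT at 0 h, library 3) to 1.193 (WT at 48 h, library 1), so the scaled libraries do not share the same total. A gene was called where the adjusted p of edgeR's quasi-likelihood test was under 0.05. PHO5 (YBR093C, chromosome II, 429548 to 430951, 1 coding exon) encodes the main phosphate-repressible acid phosphatase of the cell surface. In cnb1Δ its 3 libraries had 190, 193 and 172 CPM at 0 h, 80.8, 92.2 and 83.3 CPM at 12 h, 68.7, 63.5 and 95.4 CPM at 48 h, and 48.4, 52.9 and 68.0 CPM at 72 h. In WT they had 192, 215 and 200 CPM at 0 h, 70.1, 60.4 and 65.9 CPM at 12 h, 33.9, 51.2 and 46.0 CPM at 48 h, and 32.4, 34.3 and 45.0 CPM at 72 h. In each strain every library in CaCl2 lay below every untreated library. At 72 h PHO5 was 3.28-fold lower than at 0 h in cnb1Δ (log2 fold change -1.71 ± 0.17, SE; adjusted p = 1.95e-07) and 5.44-fold lower than at 0 h in WT (-2.44 ± 0.17; adjusted p = 2.13e-09). In bulk RNA a fall in all cells and a loss of the transcript from some of them cannot be told apart.

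PHO11 (YAR071W, chromosome I, 225460 to 226863) and PHO12 (YHR215W, chromosome VIII, 552099 to 553502) encode secreted acid phosphatases that are nearly the same protein. Their coding sequences differed at 4 of 1404 bases (99.7% identity), so how the reads were shared between them depends on the authors' counting and the sum is the safer value. The sum was 350, 357 and 320 CPM at 0 h, 164, 268 and 180.0 CPM at 12 h, 124, 162 and 208 CPM at 48 h, and 62.1, 91.2 and 129 CPM at 72 h in cnb1Δ. In WT it was 316, 317 and 302 CPM at 0 h, 133, 126 and 149.5 CPM at 12 h, 27.9, 77.7 and 71.7 CPM at 48 h, and 19.3, 25.7 and 37.0 CPM at 72 h. No library in CaCl2 reached the level of an untreated library of its strain, and at 72 h the lowest cnb1Δ library lay above the highest WT library. The sum fell by 1.86 ± 0.32 on the log2 scale at 72 h in cnb1Δ (adjusted p = 6.33e-05) and fell by 3.51 ± 0.34 in WT (adjusted p = 6.54e-08). At 12 h the sum fell by 1.19 ± 0.31 in WT (adjusted p = 0.0038), while the value of -0.75 ± 0.31 in cnb1Δ did not pass the test (adjusted p = 0.0561). The difference between the strains' responses at 12 h, 0.45 ± 0.43, did not pass the test either (adjusted p = 0.732). As separate rows at 12 h in cnb1Δ, PHO12 was called as lower under 6 of 11 alternatives and PHO11 under 3 of 11. Taken as separate rows at 72 h, PHO11 fell by 2.31 ± 0.39 in cnb1Δ and fell by 3.87 ± 0.43 in WT, and PHO12 fell by 1.73 ± 0.30 in cnb1Δ and fell by 3.40 ± 0.32 in WT. PHO11 supplied 18.7% ± 3.3 (SD, n = 3) of the summed counts in cnb1Δ at 72 h, against 26.3% ± 1.7 at 0 h, and 20.8% ± 3.1 in WT at 72 h, against 27.1% ± 1.6 at 0 h.

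PHO8 (YDR481C, chromosome IV, 1418550 to 1420250) encodes the alkaline phosphatase of the vacuole. It had 400, 333 and 357 CPM at 0 h, 192, 188 and 185 CPM at 12 h, 99.5, 130.0 and 149.98 CPM at 48 h, and 57.0, 96.4 and 124 CPM at 72 h in cnb1Δ. In WT it had 392.3, 337 and 348 CPM at 0 h, 142, 103 and 127 CPM at 12 h, 62.3, 109 and 84.7 CPM at 48 h, and 56.3, 77.7 and 76.3 CPM at 72 h. At 72 h it was 3.93-fold lower in cnb1Δ and 5.12-fold lower in WT than at 0 h (log2 fold changes -1.97 ± 0.23 and -2.36 ± 0.23; adjusted p = 1.32e-06 and 9.15e-08). At 12 h every cnb1Δ library lay above every WT library, with 1.35 to 1.82 times the WT level in libraries of the same number. The strain difference there of 0.60 ± 0.22 did not pass the test (adjusted p = 0.0765) but was called under 6 of 12 alternatives. The strains overlapped at 48 h and 72 h, and the strain difference of 0.40 ± 0.22 at 72 h did not pass the test either (adjusted p = 0.317).

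**Figure D1:**
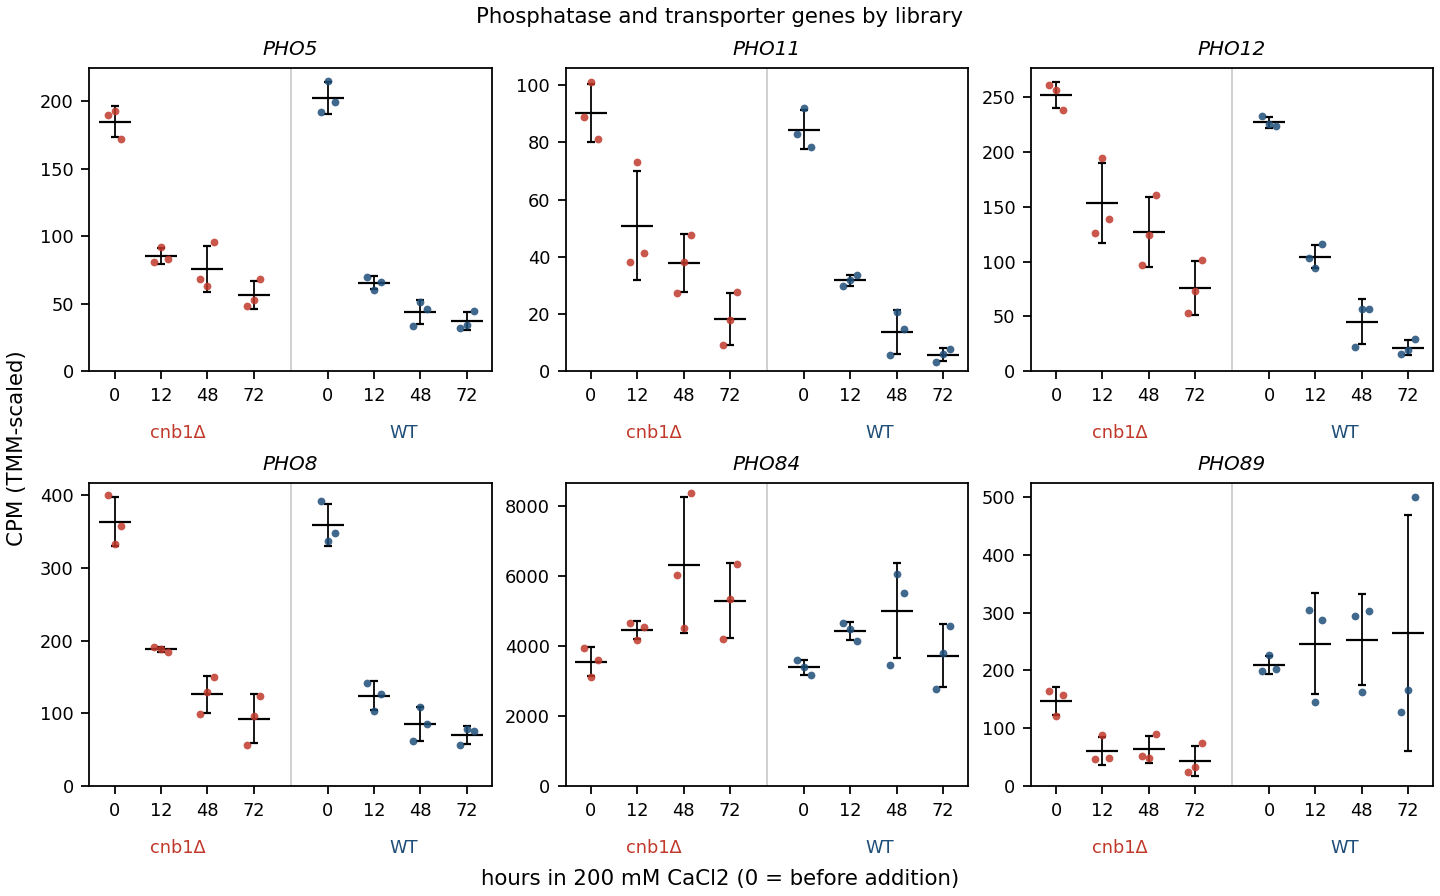
Levels of the phosphatase genes (PHO5, PHO11, PHO12, PHO8) and the phosphate transporter genes (PHO84, PHO89) in TMM-scaled CPM against hours in CaCl2, with cnb1Δ on the left and WT on the right of each panel. Points are libraries in the order 1 to 3, the long dash is the mean and the bar the SD (n = 3). The phosphatase genes lie below their 0 h level at every later time in both strains, and PHO89 lies lower in cnb1Δ than in WT at 12, 48 and 72 h.

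The high-affinity transporter genes behaved differently from the phosphatase genes and from each other. PHO84 (YML123C, chromosome XIII, 24037 to 25800) encodes the proton-phosphate symporter that carries most phosphate uptake in starved cells. It had 3944, 3108 and 3613 CPM at 0 h, 4666, 4174 and 4558 CPM at 12 h, 6043, 4535 and 8391 CPM at 48 h, and 4205, 5344 and 6365 CPM at 72 h in cnb1Δ. In WT it had 3604, 3412 and 3167 CPM at 0 h, 4668, 4496 and 4145 CPM at 12 h, 3472, 6056 and 5526 CPM at 48 h, and 2788, 3808 and 4583 CPM at 72 h. PHO84 rose at 48 h in cnb1Δ (log2 fold change 0.83 ± 0.23, adjusted p = 0.0042) and at 72 h in cnb1Δ (0.58 ± 0.22, adjusted p = 0.0325), and at 48 h in WT (0.56 ± 0.22, adjusted p = 0.0341), where library 1 lay within the untreated range. In WT at 72 h the change was 0.13 ± 0.22 (adjusted p = 0.612). At 12 h every library of both strains lay above the untreated libraries of its strain, but the values of 0.33 ± 0.22 in cnb1Δ and 0.39 ± 0.22 in WT did not pass the test (adjusted p = 0.242 and 0.164). The labels' library numbers paired the WT libraries at 12 h and 0 h, and a fit of these 6 with the numbers as a block called the WT value (0.39, adjusted p = 0.0025). A fit of these 6 without the block called it as well (0.39, adjusted p = 0.0076), so the call did not need the block. In cnb1Δ a fit of the 12 h and 0 h libraries alone also called the 12 h value (0.32, adjusted p = 0.0216). With the block it was called too (0.33, adjusted p = 0.00093), although the numbers did not pair these libraries. Under total counts and under limma on TPM the 12 h value was called in both strains. The strain difference at 72 h was 0.51 ± 0.22 and did not pass the test (adjusted p = 0.179). The numbers paired the strains there, cnb1Δ was higher in 3 of 3 pairs (1.39 to 1.51 times WT), and the difference was called in the fit of these 6 libraries with the block (0.53, adjusted p = 0.0139), under total counts and under limma on TPM. The call at 48 h in WT was lost without WT library 2 or 3 at 0 h or WT library 2 or 3 at 48 h (0.41 to 0.57, adjusted p up to 0.149). The call at 72 h in cnb1Δ was lost without cnb1Δ library 2 or 3 at 0 h or cnb1Δ library 2 or 3 at 72 h (0.43 to 0.59, adjusted p up to 0.143). That call was also lost under RLE factors (0.54, adjusted p = 0.0508) and in the group fit with the block (0.55, adjusted p = 0.0821). Group fits lost the WT call at 48 h both without the block (0.60, adjusted p = 0.0806) and with it (0.56, adjusted p = 0.1755). RefSeq annotates the antisense gene YNCM0001W across PHO84, and the use of strand in the counting is not given in the sources used here, so sense and antisense reads cannot be told apart.

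PHO89 (YBR296C, chromosome II, 796798 to 798522) fell in cnb1Δ, and no change passed the test in WT. It had 165, 120 and 157 CPM at 0 h, 46.9, 88.5 and 47.7 CPM at 12 h, 52.5, 48.0 and 90.2 CPM at 48 h, and 23.8, 33.2 and 73.7 CPM at 72 h in cnb1Δ. In WT it had 199, 227 and 203 CPM at 0 h, 305, 146 and 288 CPM at 12 h, 294, 163 and 304 CPM at 48 h, and 128, 166 and 500 CPM at 72 h. Every cnb1Δ library in CaCl2 lay below every untreated cnb1Δ library, while WT libraries in CaCl2 lay on both sides of the untreated WT libraries. In cnb1Δ the log2 fold change was -1.27 ± 0.46 at 12 h, -1.21 ± 0.46 at 48 h and -1.76 ± 0.47 at 72 h (adjusted p = 0.0329, 0.0316 and 0.0033). In WT it was 0.23 ± 0.45 at 12 h, 0.28 ± 0.45 at 48 h and 0.34 ± 0.45 at 72 h, and none of these passed the test (adjusted p = 0.526 to 0.69). The cnb1Δ calls at 12 h and 48 h were each lost without any of 4 of the 6 libraries, namely cnb1Δ library 1 or 3 at 0 h and library 1 or 3 at 12 h (adjusted p up to 0.111) or library 1 or 2 at 48 h (up to 0.109), and the call at 72 h was kept in all 6 cases.

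**Figure D2:**
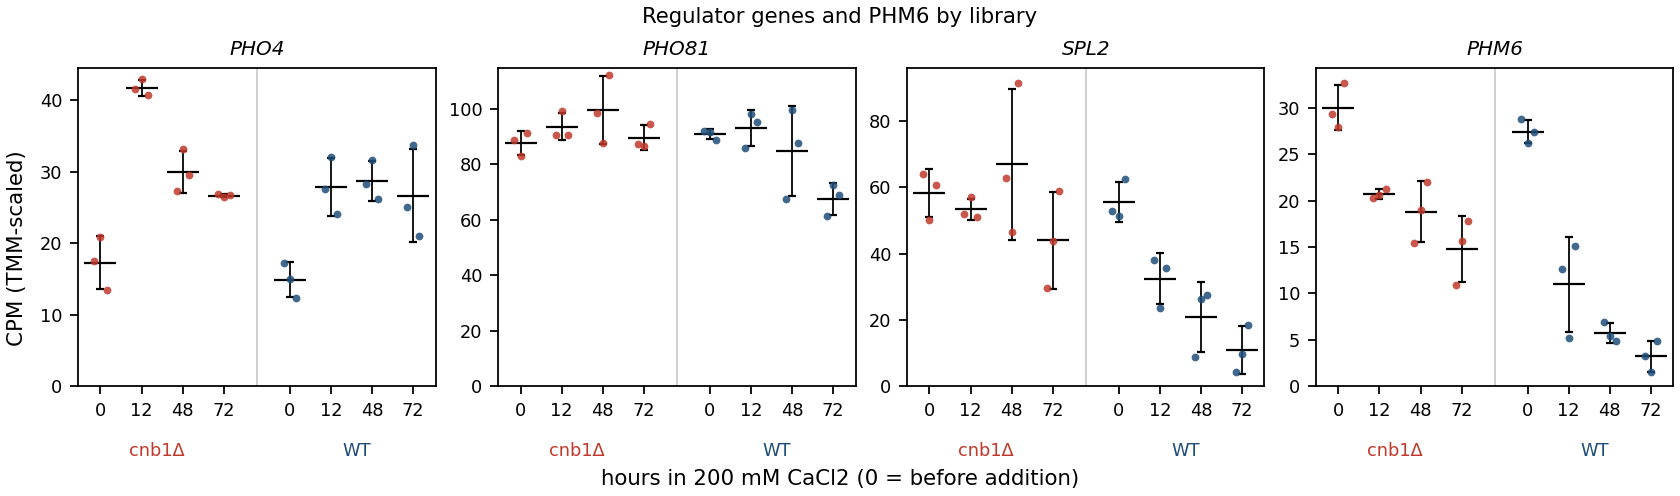
Levels of the regulator genes PHO4, PHO81 and SPL2 and of PHM6 in TMM-scaled CPM against hours in CaCl2, drawn as for the phosphatase genes. SPL2 and PHM6 are lower in WT than in cnb1Δ at 48 h and 72 h, whereas PHO4 lies above its untreated level in both strains.

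The genes of the regulators and of the small protein Phm6 moved in several directions. PHO4 (YFR034C, chromosome VI, 225020 to 225958), which encodes the pathway's transcription factor, was the lowest of the 10 genes per length at 0 h and rose in both strains. In cnb1Δ it had 17.5, 20.9 and 13.4 CPM at 0 h, 41.5, 43.0 and 40.8 CPM at 12 h, 27.4, 33.2 and 29.5 CPM at 48 h, and 26.8, 26.4 and 26.8 CPM at 72 h. In WT it had 17.3, 15.1 and 12.3 CPM at 0 h, 27.6, 32.1 and 24.03 CPM at 12 h, 28.3, 31.7 and 26.1 CPM at 48 h, and 25.1, 33.8 and 21.0 CPM at 72 h. Every library in CaCl2 was above every untreated library of its strain. The log2 fold changes at 12, 48 and 72 h were 1.27, 0.79 and 0.62 in cnb1Δ and 0.91, 0.95 and 0.84 in WT (SE 0.17 each; adjusted p at most 0.0033). Between 12 h and 72 h PHO4 fell by 0.65 ± 0.16 in cnb1Δ (adjusted p = 0.0107), and the value in WT was -0.07 ± 0.16 (adjusted p = 0.775).

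PHO81 (YGR233C, chromosome VII, 954674 to 958210), the inhibitor of the Pho80-Pho85 kinase, had the narrowest fold range of group means among the 10 genes (1.47-fold). It lay between 61.3 and 112 CPM over all 24 libraries. It had 88.8, 83.0 and 91.2 CPM at 0 h and 87.3, 86.6 and 94.7 CPM at 72 h in cnb1Δ, and 92.1, 91.5 and 88.7 CPM at 0 h and 61.3, 72.6 and 68.8 CPM at 72 h in WT. The change at 72 h was 0.03 ± 0.11 in cnb1Δ (adjusted p = 0.825), against a fall of 0.43 ± 0.11 in WT (adjusted p = 0.0027). Scaling by total counts alone gave all genes at 72 h a median log2 fold change of 0.34 in cnb1Δ and 0.38 in WT. Under TMM scaling these medians were 0.05 and 0.08. Under total counts the WT value of PHO81 was -0.13 (adjusted p = 0.217) and PHO81 rose in cnb1Δ (0.32, adjusted p = 0.0046). The sign at 72 h in WT was the same under both scalings and the call was not. At 48 h in WT the value was -0.10 ± 0.11, against 0.21 under total counts, and neither passed the test (adjusted p = 0.458 and 0.0514).

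SPL2 (YHR136C, chromosome VIII, 374654 to 375100) encodes a small protein known to down-regulate low-affinity phosphate transport. It had 63.9, 50.1 and 60.6 CPM at 0 h, 52.0, 56.9 and 51.1 CPM at 12 h, 62.8, 46.4 and 91.5 CPM at 48 h, and 29.5, 43.9 and 58.7 CPM at 72 h in cnb1Δ. In WT it had 52.7, 51.4 and 62.4 CPM at 0 h, 38.1, 23.5 and 35.7 CPM at 12 h, 8.67, 26.2 and 27.6 CPM at 48 h, and 4.27, 9.81 and 18.6 CPM at 72 h. In cnb1Δ the libraries overlapped between 0 h and each later time, and no change passed the test (log2 fold change at 72 h -0.40 ± 0.40, adjusted p = 0.389). In WT it fell by 1.42 ± 0.41 at 48 h and fell by 2.35 ± 0.42 at 72 h (adjusted p = 0.0052 and 7.99e-05), and at 12 h the value was -0.78 ± 0.40 (adjusted p = 0.117). In the fit of the WT libraries at 12 h and 0 h with the library numbers as a block, the 12 h value was called (-0.80, adjusted p = 0.00029). Without the block the fit of these libraries called it as well (-0.78, adjusted p = 0.004).

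PHM6 (YDR281C, chromosome IV, 1022007 to 1022321) encodes a protein of unknown function and is known to be expressed under phosphate starvation. It had 29.4, 28.0 and 32.7 CPM at 0 h, 20.3, 20.6 and 21.3 CPM at 12 h, 15.4, 19.1 and 22.1 CPM at 48 h, and 10.9, 15.7 and 17.8 CPM at 72 h in cnb1Δ. In WT it had 28.8, 26.2 and 27.4 CPM at 0 h, 12.6, 5.23 and 15.1 CPM at 12 h, 6.92, 5.41 and 4.90 CPM at 48 h, and 3.28, 1.502 and 4.89 CPM at 72 h. PHM6 fell in WT at every time, by 3.09 ± 0.34 at 72 h (8.51-fold, adjusted p = 2.86e-07). In cnb1Δ it fell at 72 h, by 1.02 ± 0.30 (2.03-fold, adjusted p = 0.0068), and the values at 12 h and 48 h, -0.53 ± 0.30 and -0.67 ± 0.30, did not pass the test (adjusted p = 0.155 and 0.063).

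Here and in the later counts over the 10 genes, PHO11 and PHO12 stand as 2 genes, although their reads may not be separate. Counted over the 10 genes, all of which passed the filter on low counts, 3 fell and 1 rose at 12 h against 0 h in cnb1Δ, 5 fell and 2 rose at 48 h, and 6 fell and 2 rose at 72 h. Over all genes tested, 20.2% fell and 22.1% rose at 12 h, 26.4% fell and 28.9% rose at 48 h, and 28% fell and 31.6% rose at 72 h in cnb1Δ. In WT 5 fell and 1 rose at 12 h, 6 fell and 2 rose at 48 h, and 7 fell and 1 rose at 72 h, where 22.4% of all genes fell and 24.6% rose at 12 h, 30% fell and 33.7% rose at 48 h, and 29.8% fell and 34.7% rose at 72 h. The median log2 fold change of the 10 genes at 72 h was -1.37 in cnb1Δ and -2.35 in WT, while that of all 6253 genes tested was 0.05 in cnb1Δ and 0.08 in WT. Without the 4 late libraries numbered 1 the counts against 0 h were also 5 fallen and 2 risen in cnb1Δ and 6 fallen and 2 risen in WT at 48 h, and 6 fallen and 2 risen in cnb1Δ and 7 fallen and 1 risen in WT at 72 h. Under scaling by total counts alone, 2 fell and 3 rose at 12 h in cnb1Δ, and at 72 h 6 fell and 3 rose in cnb1Δ and 6 fell and 2 rose in WT. Of all genes called at 72 h, 53% in cnb1Δ and 53.8% in WT were higher than at 0 h, and 73.8% and 71.9% under that scaling. At 12 h in cnb1Δ 52.3% of the called genes were higher under TMM scaling and 77.6% under total counts. The shares of all genes tested that fell or rose under total counts, or without the late libraries numbered 1, are not given here. Those counts of the 10 genes therefore show only how the calls depend on the processing. Between 12 h and 72 h 5 of the genes fell in cnb1Δ, where 10.3% of all genes fell, and 7 fell in WT, where 11% did. These counts were also 5 and 7 without the late libraries numbered 1, and leaving out 1 library at a time gave 2 to 5 in cnb1Δ and 4 to 7 in WT.

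The order of the genes by deposited TPM, which is scaled per transcript length, changed with time. When the 8 groups were ordered by the mean CPM of a gene, 5 to 7 of the 7 neighbouring pairs of groups overlapped in their libraries for each of the 10 genes. PHO84 was the most abundant in all 8 groups, at 2696 ± 307 TPM in cnb1Δ and 1783 ± 324 TPM in WT at 72 h (SD, n = 3), against 1508 ± 133 TPM in cnb1Δ and 1358 ± 134 TPM in WT at 0 h. PHO8 and PHO12 followed it in both strains at 0 h. At 72 h SPL2 stood next to PHO84 in cnb1Δ with 87.6 ± 21.7 TPM, and PHO89 stood there in WT with 127 ± 92.1 TPM. In WT at 72 h PHO11 and PHM6 were the lowest, at 3.46 ± 1.20 and 8.67 ± 4.30 TPM.

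**Figure D3:**
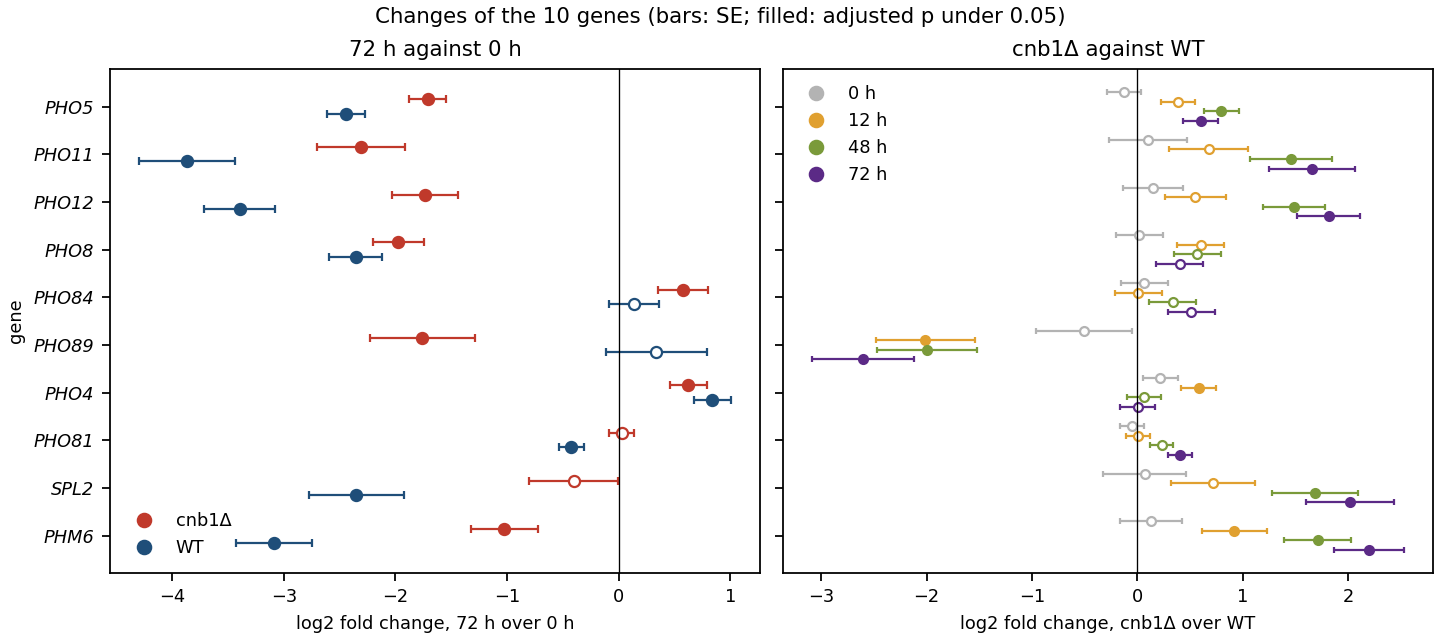
Log2 fold changes of the 10 genes with their SE, on the left for 72 h over 0 h in cnb1Δ and WT, and on the right for cnb1Δ over WT at 0, 12, 48 and 72 h. Filled symbols have an adjusted p under 0.05 in edgeR's quasi-likelihood test. In CaCl2 PHO89 lies on the opposite side of 0 from PHO5, PHO11, PHO12, SPL2 and PHM6 in the strain comparison.

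The comparison of cnb1Δ with WT at each time asks which of these transcripts depend on calcineurin. In untreated cells 0 of the 10 genes were called, where 0.032% of all genes were (225 genes had an unadjusted p under 0.05 in edgeR, and DESeq2 also called 0 of the 10). PHO89 had a log2 difference of -0.51 ± 0.45 (adjusted p = 0.9996), although its 3 cnb1Δ libraries lay below the 3 WT libraries. The labels' library numbers paired the strains at 0 h, and with the numbers as a block in a fit of the 0 h libraries alone this difference was called (-0.50, adjusted p = 0.0093).

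PHO89 was lower in cnb1Δ than in WT at all 3 times in CaCl2, by 4.04-fold at 12 h (log2 difference -2.01 ± 0.47, adjusted p = 0.0062), 3.99-fold at 48 h (-1.997 ± 0.47, adjusted p = 0.0154) and 6.08-fold at 72 h (-2.60 ± 0.48, adjusted p = 0.0016). The cnb1Δ level was 0.154 to 0.606 of the WT level in libraries of the same number at 12 h, 0.179 to 0.297 at 48 h and 0.147 to 0.201 at 72 h, lower in 3 of 3 pairs each time. At 48 h the call was lost without cnb1Δ library 1 or 2 or WT library 3 (-1.88 to -1.83, adjusted p up to 0.095). At 12 h and at 72 h it was kept without any of the 6 libraries compared, with -3.21 to -1.75 at 72 h. The difference between the strains' responses from 0 h did not pass the test for PHO89 at 12, 48 or 72 h (-1.51 ± 0.65, -1.49 ± 0.65 and -2.10 ± 0.65; adjusted p = 0.286, 0.465 and 0.138).

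In the same cultures the phosphatase genes PHO5, PHO11 and PHO12 and the genes SPL2 and PHM6 were higher in cnb1Δ than in WT at 48 h and 72 h, in 3 of 3 pairs of the same number. At 72 h PHM6 was 4.58-fold higher (log2 difference 2.19 ± 0.33, adjusted p = 0.00026), SPL2 4.05-fold higher (2.02 ± 0.42, adjusted p = 0.0043) and PHO12 3.52-fold higher (1.81 ± 0.30, adjusted p = 0.00065). PHO11 was 3.15-fold higher (1.66 ± 0.41, adjusted p = 0.0135), the sum of PHO11 and PHO12 differed by 1.78 ± 0.32 (adjusted p = 0.0012), and PHO5 was 1.52-fold higher (0.60 ± 0.16, adjusted p = 0.0246). PHO81 was 1.33-fold higher (0.41 ± 0.11, adjusted p = 0.0257). At 48 h the log2 differences were 0.80 ± 0.16 for PHO5, 1.46 ± 0.39 for PHO11, 1.49 ± 0.30 for PHO12, 1.69 ± 0.41 for SPL2 and 1.71 ± 0.32 for PHM6 (adjusted p = 0.0065, 0.0335, 0.0054, 0.0185 and 0.0031). At 12 h PHM6 (0.92 ± 0.31, adjusted p = 0.0476) and PHO4 (0.58 ± 0.16, adjusted p = 0.0193) were higher in cnb1Δ.

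In CaCl2 the test called 2 of the 10 genes higher and 1 lower in cnb1Δ at 12 h, where 8.43% of all genes were higher and 6.96% lower. It called 5 higher and 1 lower at 48 h, where 2.7% of all genes were higher and 2.19% lower, and 6 higher and 1 lower at 72 h, where 4.67% were higher and 4.45% lower. The median log2 difference of the 10 genes was 0.57, 0.68 and 0.55 at 12, 48 and 72 h, and that of all genes lay within 0.02 of 0 each time. Without the 4 late libraries numbered 1, 6 genes were called higher and 1 lower at 48 h, and 7 higher and 1 lower at 72 h, PHO8 being the addition both times (0.51 and 0.52, adjusted p = 0.0457 and 0.0351). A fit of only the 6 libraries compared, with no block, called 0 of the 10 genes at 48 h and 2 at 72 h. Over all genes that fit called only 5 at 48 h and 182 at 72 h, so few calls there are not particular to the 10 genes. With the block that fit left PHO5 (0.78, adjusted p = 0.106) and SPL2 (1.77, adjusted p = 0.0873) uncalled at 48 h.

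Several of these strain calls also depended on 1 library. At 12 h PHM6 kept its call only without WT library 3, and PHO4 lost it without cnb1Δ library 2 or WT library 1 or 3 (adjusted p up to 0.184 for PHM6 and 0.102 for PHO4). At 48 h PHO11 lost it without cnb1Δ library 2 or 3 or WT library 1 or 3 (1.09 to 1.52, adjusted p up to 0.124), and PHO5 and SPL2 without cnb1Δ library 3 (0.58 and 1.38, adjusted p = 0.0507 and 0.0865). At 72 h PHO5 lost it without cnb1Δ library 2 or 3 or WT library 1 or 2 (0.44 to 0.64, adjusted p up to 0.137), PHO81 without cnb1Δ library 2 or 3 or WT library 1 or 3 (0.34 to 0.43, up to 0.11), and PHO11 without cnb1Δ library 3 or WT library 1 (1.23 and 1.38, up to 0.0871). PHO12 and PHM6 at both 48 h and 72 h, and SPL2 and PHO89 at 72 h, kept their calls without any of the 6 libraries.

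The difference between the strains' responses was called for PHM6 alone, at 72 h, where 0.416% of all genes had a response above that of WT and 0.624% one below it. PHM6 fell by 1.02 in cnb1Δ and fell by 3.09 in WT, a difference of 2.07 ± 0.44 (adjusted p = 0.0278). This call was lost without any of 8 of the 12 libraries, namely any cnb1Δ library or WT library 2 or 3 at 0 h, cnb1Δ library 2 or 3 at 72 h or WT library 1 at 72 h (1.91 to 2.13, adjusted p up to 0.074). PHO12 came next with 1.67 ± 0.41 (adjusted p = 0.0561), followed by the sum of PHO11 and PHO12 with 1.65 ± 0.44 (adjusted p = 0.0764) and SPL2 with 1.95 ± 0.57 (adjusted p = 0.126). Without the late libraries numbered 1 the difference at 72 h was called for 4 genes, namely PHM6, PHO12, PHO11 and SPL2, and at 48 h for 0. At 12 h and 48 h 0 of the 10 genes were called, where 1.82% and 0.192% of all genes were (869 and 592 genes had an unadjusted p under 0.05 in edgeR, and DESeq2 called 0 and 1 of the 10).

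By the highest Pearson correlation over the 8 group means of log2 CPM, among 4289 named genes with at least 20 CPM in a group, the genes most like PHO89 were ENA1 (r = 0.984), which encodes a sodium export pump, SLD5 (0.977) and VAN1 (0.971). Those most like PHO5 were GLE2 (0.998), THR4 (0.996) and MSS51 (0.995), and those most like PHO84 were YKE4 (0.93), MRPL15 (0.907) and CDC34 (0.896). These values describe 8 points that share libraries and times. ENA1 belongs to a family of closely similar genes, whose reads the authors' counting could have split.

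Other genes of phosphate handling were followed in 4 lists, whose counts at 72 h against 0 h are set beside the 28% of all genes that fell and the 31.6% that rose in cnb1Δ, and the 29.8% that fell and the 34.7% that rose in WT. Of 10 other genes known or reported as Pho4 targets, 6 fell and 3 rose in cnb1Δ, and 7 fell and 2 rose in WT, with median log2 fold changes of -0.45 and -0.63. The 3 and 2 risen genes are no more than the share over all genes. The 4 listed genes of the vacuolar transporter chaperone complex, which makes polyphosphate, fell in both strains. VTC3 fell by 0.78 ± 0.26 in cnb1Δ and fell by 1.44 ± 0.27 in WT, VTC1 fell by 0.73 ± 0.19 in cnb1Δ and fell by 1.39 ± 0.20 in WT, and VTC4 fell by 0.49 ± 0.13 in cnb1Δ and fell by 0.91 ± 0.13 in WT. CTF19, which encodes a kinetochore subunit, fell by 0.46 ± 0.17 in cnb1Δ and fell by 1.17 ± 0.18 in WT. KRE2, a mannosyltransferase gene, fell by 0.72 ± 0.14 in cnb1Δ and fell by 0.49 ± 0.13 in WT, and PHM8 rose by 0.70 ± 0.29 in cnb1Δ and rose by 0.87 ± 0.29 in WT. Between the strains at 72 h CTF19 (0.82 ± 0.18), VTC4 (0.51 ± 0.13), GDE1 (0.48 ± 0.14), which encodes a glycerophosphodiesterase, and VTC2 (0.29 ± 0.09) were higher in cnb1Δ and 0 of the 10 were lower. Over all genes 4.67% were higher and 4.45% lower there, so 0 of 10 lower is near that share.

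Of 14 genes of PHO signalling, 4 fell and 1 rose in cnb1Δ at 72 h, and 6 fell and 1 rose in WT, with medians of -0.03 and -0.06. The 4 fallen in cnb1Δ are at the share of all genes that fell there. PHO80, the cyclin that restrains Pho4, fell by 1.08 ± 0.13 in cnb1Δ and fell by 1.0015 ± 0.12 in WT, and PSE1, which imports Pho4 into the nucleus, fell by 0.66 ± 0.14 in cnb1Δ and fell by 0.64 ± 0.14 in WT. PHO92 had the largest called change of the list, a log2 fold change of -1.69 ± 0.41 in WT, and its value of -0.89 ± 0.40 in cnb1Δ did not pass the test (adjusted p = 0.0583). SIW14, an inositol pyrophosphate phosphatase, rose by 0.59 ± 0.08 in cnb1Δ and rose by 0.58 ± 0.08 in WT. ARG82, an inositol polyphosphate kinase gene, fell by 0.41 ± 0.17 in cnb1Δ and fell by 0.47 ± 0.17 in WT. Between the strains ARG82 (0.85 ± 0.17), CBF1 (0.46 ± 0.13) and PHO23 (0.38 ± 0.11) were higher in cnb1Δ at 12 h, and 0 of the 14 were called at 72 h. Over all genes 8.43% were higher and 6.96% lower at 12 h, and 4.67% and 4.45% at 72 h, so 0 of 14 is near that share.

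Of 9 other genes of phosphate transport, 5 fell and 1 rose in cnb1Δ at 72 h, and 4 fell and 2 rose in WT, with medians of -0.28 and -0.06. MIR1 and PIC2, which carry phosphate into mitochondria, fell by 1.15 ± 0.13 and 1.03 ± 0.30 in cnb1Δ and fell by 1.33 ± 0.13 and 1.12 ± 0.30 in WT. PHO91, which encodes a phosphate transporter of the vacuole, fell by 0.90 ± 0.21 in cnb1Δ and fell by 0.87 ± 0.21 in WT, and GTR1 rose by 1.21 ± 0.11 in cnb1Δ and rose by 1.22 ± 0.11 in WT. Between the strains at 12 h PHO88 (-0.52 ± 0.11) and the low-affinity transporter genes PHO87 (-0.34 ± 0.08) and PHO90 (-0.54 ± 0.15) were lower in cnb1Δ. At 72 h PHO88 was lower in cnb1Δ (-0.39 ± 0.11, adjusted p = 0.0249), and PHO87 and PHO90 had -0.27 ± 0.08 and -0.34 ± 0.15, which did not pass the test.

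Of 8 other phosphatase genes, 3 fell and 2 rose in cnb1Δ at 72 h, and 3 fell and 3 rose in WT, with medians of 0.03 and -0.13, near the shares over all genes. PHO3, the constitutive acid phosphatase gene beside PHO5 with 86.5% identity in its coding sequence, fell by 2.17 ± 0.22 in cnb1Δ and fell by 2.48 ± 0.22 in WT. DIA3 fell by 2.76 ± 0.31 in cnb1Δ and fell by 1.88 ± 0.29 in WT, and PHO13 fell by 0.42 ± 0.09 in cnb1Δ and fell by 0.66 ± 0.09 in WT. PPN1, a polyphosphatase gene, rose by 0.68 ± 0.11 in cnb1Δ and rose by 0.80 ± 0.11 in WT. Between the strains at 72 h DDP1 was higher (0.40 ± 0.12, adjusted p = 0.0481) and PPN2 lower in cnb1Δ (-0.38 ± 0.12, adjusted p = 0.0437), and at 12 h DDP1 was higher (0.55 ± 0.12, adjusted p = 0.0052).

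**Figure D4:**
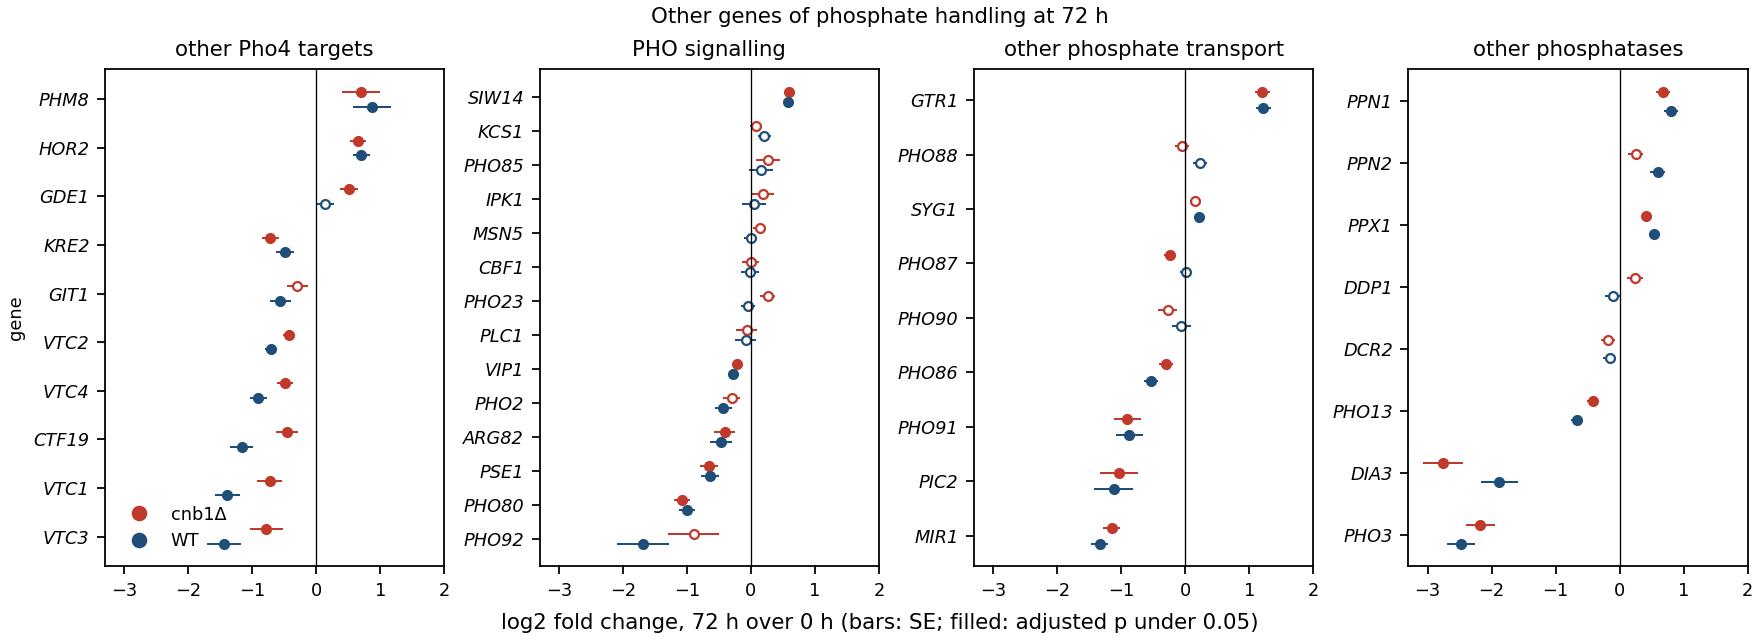
Log2 fold changes at 72 h over 0 h, with SE, of other genes of phosphate handling in 4 lists, for cnb1Δ and WT. Filled symbols have an adjusted p under 0.05. Within the lists genes lie on both sides of 0, with PHO3 and DIA3 among the lowest and GTR1 among the highest.

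The 6 MATa marker genes moved with the strain comparison in CaCl2. All 6 fell at 72 h in both strains, with a median of -2.04 in cnb1Δ and -3.72 in WT, and all 6 were higher in cnb1Δ than in WT at 72 h. Their summed level was 650 to 945 CPM in cnb1Δ and 323 to 389 CPM in WT at 72 h, against 2304 to 2492 CPM in cnb1Δ and 2373 to 2785 CPM in WT at 0 h. Of the 18 general stress genes 0 were higher and 1, HOR7, was lower in cnb1Δ at 72 h, where 4.67% of all genes were higher and 4.45% lower. The summed level of the 18 stress genes at 72 h was 929 to 2092 CPM in cnb1Δ and 1155 to 2424 CPM in WT. The part of either in the results for the PHO genes was not tested.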

How the data were processed

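RNA of 24 libraries (8 groups of 3) was measured by polyA RNA-seq, and groups were taken from the labels. The authors deposited whole-number counts for 7126 genes and TPM values for 6744 genes. Per the submitters' processing notes, featureCounts, DESeq2 and build R64 were used, with no version stated. The aligner, the strand setting and the handling of reads with several matches were not given in the sources used here. Every row names a gene. The deposited counts were filtered with filterByExpr by group (6253 genes left), scaled by TMM and tested with edgeR 4.0.16 (quasi-likelihood F test, R 4.3.3) in 1 model of 8 group means with 16 residual degrees of freedom. The 15 comparisons were each time against 0 h and 72 h against 12 h within a strain, the strains at each time, and the difference of responses (cnb1Δ minus WT) at 3 times. Adjusted p-values are two-sided Benjamini-Hochberg values over all genes tested, called under 0.05. The SE equals the absolute log2 fold change over √F. CPM are TMM-scaled, except the summed marker levels, which are scaled by total counts. Log2 CPM used a prior count of 2. The script was tested on simulated data. The labels name repeated time courses but not separate cultures, so p-values measure the spread between these libraries. Replicates differed by 4.61 to 324 chi-square per degree of freedom, so none was counted as a duplicate.

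Library numbers paired the libraries where all 3 correlations of deviations from group means exceeded 0.1. This was so in the 12 h response of WT, with 0.228 to 0.396. Between the strains the correlations were 0.193 to 0.229 at 0 h, while the 48 h libraries had 0.162 to 0.569 and the 72 h libraries 0.314 to 0.689.

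The genes and lists were chosen with earlier results of these data known. Named were the 10 genes and the sum of PHO11 and PHO12. From each of the 4 other phosphate lists at most 4 genes per comparison were named, those called with the largest change at 72 h against 0 h or called between the strains. HOR7, and the uncalled values of named genes, were added after their values were seen. Alternatives were RLE factors, total counts, other filters, DESeq2 1.42.0, limma 3.58.1 on log2 of deposited TPM + 1 or + 0.1, fits of the compared groups, the replicate block, and left-out libraries. Upstream windows and coding identities came from the RefSeq R64 genome, and coding DNA identity replaced the planned protein identity.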

Additional observations from a re-analysis of the deposited data

Results flagged for a closer look

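The response of PHM6 at 72 h differed between the strains by 2.07 on the log2 scale (SE 0.44, adjusted p = 0.0278 in edgeR's quasi-likelihood test of the difference itself), with a fall of 1.02 in cnb1Δ and of 3.09 in WT. PHM6 was higher in cnb1Δ than in WT in 3 of 3 libraries of the same number at 72 h. Over the fits that used all 12 libraries of the 4 groups the value ran from 2.04 to 2.18, and the call was lost without any of 8 of these libraries.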

How the results depend on the processing

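Of 1870 values of the 10 genes under the alternatives other than leaving 1 library out, 28 lost a call, 91 gained a call and 30 changed sign, and none of those 30 was called before or after. The values that changed sign lay near 0. Under total counts and under limma on TPM, SPL2 at 12 h against 0 h in cnb1Δ came to 0.084, 0.078 and 0.079, PHO81 at 48 h against 0 h in WT to 0.21, 0.19 and 0.20, PHO81 between the strains at 0 h to 0.024, 0.037 and 0.039, and PHO81 at 72 h against 12 h in cnb1Δ to 0.019, 0.0094 and 0.0098. PHO4 at 72 h against 12 h in WT came to 0.056, 0.0022 and 0.0018, and PHO89 there to -0.0034 and -0.0044 under limma and to -0.0797 and -0.0231 with the replicate block. PHO81 at 72 h against 0 h in cnb1Δ came to -0.0086 under RLE factors, -0.00063 with at least 10 CPM and -0.0085 under DESeq2. Without the 4 late libraries numbered 1, PHO81 at 48 h in WT came to 0.067 and PHO4 between the strains at 72 h to -0.042. The cause was not tested for any of these, nor for the counts that follow.

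In fits of the compared groups alone, without and with the replicate block, the 10 genes gave 8 and 8 calls at 12 h in cnb1Δ, 6 and 8 between the strains at 12 h, and, for the difference of responses, 3 and 4 at 12 h, 1 with either fit at 48 h, and 2 and 4 at 72 h. Without the block they gave 0 calls between the strains at 48 h and 2 at 72 h, and with it 1 at 0 h. Over all genes the group fits with the block called 4136 at 12 h in cnb1Δ and 1721 between the strains at 12 h. The fit of all libraries without a block called 2649 and 962 there, so the added calls were not particular to the 10 genes. The block in the fit of all libraries gave 3 calls for the difference of responses at 72 h (PHM6, PHO12 and SPL2) and changed no call of the 10 genes where the numbers paired the libraries. Between the strains at 12 h 5 genes were called under total counts and under each limma fit. For the difference of responses at 72 h 2 were called under total counts, DESeq2 and each limma fit and 4 without the late libraries numbered 1, and DESeq2 called 1 at 48 h.

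Over all genes, group fits with the block called 4136 at 12 h in cnb1Δ, 148, 1721, 61 and 1103 between the strains at 0, 12, 48 and 72 h, 802 and 198 for the difference of responses at 12 h and 72 h, and 846 at 72 h against 12 h in WT. Without the block they called 15, 5 and 182 between the strains at 0, 48 and 72 h, 525 for the difference at 12 h and 836 at 72 h against 12 h in WT. The block in all libraries gave 467 between the strains at 48 h, and 235, 30 and 122 for the differences at 12, 48 and 72 h. DESeq2 gave 231, 40 and 140 there. Total counts gave 37 and limma 39 at 72 h. Leaving out the late libraries numbered 1 gave 524 between the strains at 48 h and 26 and 191 for the differences at 48 h and 72 h. Between the strains at 0 h 1 gene was called with at least 10 CPM and under limma.

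Leaving out 1 library at a time gave 1 to 2, 3 to 6 and 4 to 7 calls of the 10 genes between the strains at 12, 48 and 72 h, 0 to 3 for the difference of responses at 72 h, and 2 to 5 (cnb1Δ) and 4 to 7 (WT) at 72 h against 12 h. Over all genes it gave 555 to 751, 128 to 563 and 285 to 495 between the strains, 64 to 100, 5 to 20 and 25 to 75 for the differences, and 503 to 1142 (cnb1Δ) and 495 to 1665 (WT) at 72 h against 12 h. Uncalled values crossed 0 for PHO4 (-0.27 to 0.076 at 72 h against 12 h in WT, -0.013 to 0.14 and -0.14 to 0.21 between the strains at 48 h and 72 h, -0.32 to 0.0078 for the difference at 48 h), PHO8 (-0.028 to 0.12 between the strains at 0 h) and SPL2 (-0.091 to 0.41 at 48 h in cnb1Δ). They did so for PHO81 (-0.0018 to 0.094 and -0.23 to 0.044 at 12 h and 48 h in WT, -0.011 to 0.0598 at 72 h in cnb1Δ, -0.0497 to 0.046 between the strains at 12 h), PHO84 (-0.041 to 0.31 at 72 h in WT, -0.037 to 0.056 between the strains at 12 h, -0.14 to 0.0037 and -0.031 to 0.46 for the differences at 12 h and 48 h) and PHO89 (-0.51 to 0.67 and -0.75 to 0.44 at 72 h against 0 h and 12 h in WT). The lowest level, 1.502 CPM for PHM6 in WT at 72 h, limits the precision of that gene.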
